A study of Mus musculus with 9 samples.

Results

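Mast cell transcripts were followed in 9 bulk RNA-seq libraries of mouse peritoneal macrophages through 10 genes chosen by symbol: Kit, Cma1, Mcpt4, Tpsab1, Tpsb2, Cpa3, Fcer1a, Ms4a2, Gata2 and Hdc. All 10 were found among 55335 gene entries, each under a single entry. Values are FPKM, fragment numbers scaled to transcript length and library size, so levels of different genes can be set side by side. A gene was tested where at least 3 libraries held 1 FPKM or more, which 8 of the 10 did and Ms4a2 and Gata2 did not.

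The cells had all received lipopolysaccharide (LPS, the TLR4 ligand) at 1 µg/mL for 4 h, after 1 h in RPMI medium with antibiotics. The LPS+EtOH group also received 5% ethanol, the LPS+CPZ group 100 µM of a compound that the labels give as CPZ without expanding the name, and the LPS group nothing else. Each group has 3 libraries, each of them a pool of 3 RNA samples. The sources used here do not say whether those samples came from separate mice or give the mice's strain, sex or age, so the p-values reflect the spread between pools and nothing beyond it. No cells without LPS and no CPZ vehicle control are among the 9 libraries.

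Mast cells are tissue-resident immune cells that store preformed mediators in granules, and the peritoneal cavity holds a small resident population of the connective tissue type. Their growth and survival depend on the receptor KIT, and antigen bound to IgE on the high-affinity receptor FcεRI makes them release the granules. The granules hold heparin, histamine made by histidine decarboxylase, and large amounts of chymases, tryptases and carboxypeptidase A3. The labels do not say how the macrophages were purified.

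Of the markers against which the macrophage label was checked, Adgre1, which encodes F4/80, stood at 81.9 to 99.8 FPKM in LPS+EtOH, 79.0 to 105 in LPS+CPZ and 134 to 150 in LPS. Cd68, a lysosomal membrane protein gene, ran the other way, at 328 to 397 FPKM in LPS+EtOH, 354 to 481 in LPS+CPZ and 43.0 to 65.9 in LPS. The gene of the CSF1 receptor, Csf1r, overlapped between each treated group and LPS, at 14.2 to 25.6 FPKM in LPS+EtOH, 27.0 to 44.3 in LPS+CPZ and 20.96 to 30.4 in LPS. The large peritoneal macrophage marker Timd4 was at 0.083 to 0.292 FPKM in LPS+EtOH, 0.652 to 1.16 in LPS+CPZ and 6.86 to 9.28 in LPS. Lyz2 was at 188 to 283 FPKM in LPS+EtOH, 153 to 294 in LPS+CPZ and 624 to 813 in LPS. Icam2 was at 0.32 to 0.386 FPKM in LPS+EtOH, 1.39 to 2.95 in LPS+CPZ and 3.8 to 5.02 in LPS. The macrophage markers Gata6 and Mertk were low throughout, at most 0.457 and 0.316 FPKM in any library. Globin genes, which belong to red blood cells, took 0.172 to 0.221% of all FPKM in LPS+EtOH, 0.0452 to 0.0972% in LPS+CPZ and 11.5 to 29.4% in LPS. Genes at 1 FPKM or more numbered 8024 to 8366 in LPS+EtOH, 10135 to 10625 in LPS+CPZ and 11096 to 11266 in LPS. Total FPKM per library ran from 302126 to 363356. The deposited values give no fragment counts, so the depth behind each value is unknown.

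The coding sequences of the paired proteases are shown because fragments of close relatives can be assigned to the wrong gene. Tpsab1 and Tpsb2, adjacent tryptase genes on chromosome 17, matched at 76.1% of 827 coding bases aligned without gaps in GENCODE M21 (GRCm38). With gaps their alignment had 931 columns, and the longest identical stretch was 39 bases. Gaps are left out of the other identities given here too. Cma1 and Mcpt4, chymase genes on chromosome 14, matched at 67.6% of 732 bases, with a longest identical stretch of 27. The lines below give 90 aligned coding bases of each gene, the same columns within a pair, 5′ to 3′, with the bases that differ within the pair in capitals (23 for the tryptases and 30 for the chymases).
Tpsab1: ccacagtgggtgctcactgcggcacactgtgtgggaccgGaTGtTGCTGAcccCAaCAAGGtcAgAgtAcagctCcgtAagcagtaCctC
Tpsb2: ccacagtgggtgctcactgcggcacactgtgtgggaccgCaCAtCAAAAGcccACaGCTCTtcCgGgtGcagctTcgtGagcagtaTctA
Cma1: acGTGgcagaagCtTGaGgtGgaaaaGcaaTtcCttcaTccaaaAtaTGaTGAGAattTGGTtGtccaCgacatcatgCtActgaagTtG
Mcpt4: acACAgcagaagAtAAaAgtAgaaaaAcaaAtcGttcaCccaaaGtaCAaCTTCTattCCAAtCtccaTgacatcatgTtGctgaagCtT
In the tryptase window the differing bases fell in its later part, after an identical run at its start. Mcpt4 was closer to Cma2, at 83.5% of 738 bases with a longest identical stretch of 56, and Cma2 stood at 0 to 0.17 FPKM in the 9 libraries. How the submitters' tools divided shared fragments is not given in the sources used here, so the split within the tryptase pair is uncertain.

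The 250 bases upstream of the transcription start are shown for 3 proteases that were each highest in the second library of every group. RefSeq windows (GRCm38.p6) were found for 8 of the 10 genes, and the letters GATAA, the core read by GATA factors such as the one encoded by Gata2, were searched on both strands after the expression values were known. The 8 genes have 10 windows, since Kit and Gata2 have a pair each. The letters occurred in 5 of the 10 windows (those of Cma1, Mcpt4, Cpa3, Fcer1a and Ms4a2) and in 22.6% of all 32851 windows of that length. The windows of Kit, Gata2 and Hdc did not hold them. In the lines below the matches (GATAA, or TTATC for the opposite strand) are in capitals.
Cpa3, chr3:20242182-20242431, minus strand: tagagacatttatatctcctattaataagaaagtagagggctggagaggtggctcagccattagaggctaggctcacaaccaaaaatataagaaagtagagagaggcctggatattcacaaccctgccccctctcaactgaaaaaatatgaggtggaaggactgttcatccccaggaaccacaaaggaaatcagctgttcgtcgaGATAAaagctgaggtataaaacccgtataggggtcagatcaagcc
Mcpt4, chr14:56062311-56062560, minus strand: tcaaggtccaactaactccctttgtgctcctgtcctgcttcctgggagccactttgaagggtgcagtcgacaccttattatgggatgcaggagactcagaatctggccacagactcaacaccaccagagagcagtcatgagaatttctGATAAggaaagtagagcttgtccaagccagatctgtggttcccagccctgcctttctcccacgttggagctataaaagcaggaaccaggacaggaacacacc
Cma1, chr14:55944676-55944925, minus strand: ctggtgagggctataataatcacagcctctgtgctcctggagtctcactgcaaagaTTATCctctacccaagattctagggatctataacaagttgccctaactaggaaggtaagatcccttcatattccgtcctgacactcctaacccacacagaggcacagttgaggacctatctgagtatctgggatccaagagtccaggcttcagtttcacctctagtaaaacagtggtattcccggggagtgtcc
Counted back from the start site, the match began 45 bases upstream in Cpa3, 102 in Mcpt4 and 194 in Cma1. The match in Cma1 was on the opposite strand. A match is a run of letters and no evidence of binding.

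By mean level over the 9 libraries the genes ranked Hdc (109 FPKM), Cma1 (18.7), Mcpt4 (12.05), Cpa3 (5.21), Tpsb2 (5.11), Tpsab1 (3.81), Kit (1.95), Fcer1a (0.952), Gata2 (0.306) and Ms4a2 (0.0298). Cma1 lay above Mcpt4 in each of the 9 libraries, but the order of the lower genes differed between groups. By group means Tpsab1 (4.44 FPKM) was above Cpa3 (3.68) and Tpsb2 (3.42) in LPS+EtOH, and in LPS+CPZ Tpsb2 (4.44) was above Cpa3 (1.89) and Fcer1a (0.889) above Kit (0.815). The ranges over libraries overlap in each of these pairs. Within libraries, Tpsab1 exceeded Cpa3 and Tpsb2 in each LPS+EtOH library, and Tpsb2 exceeded Cpa3 in each LPS+CPZ library. Fcer1a lay below Kit in the third LPS+CPZ library.

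The 5 granule proteases were above 0 in every library. Summed over Cma1, Mcpt4, Tpsab1, Tpsb2 and Cpa3, they came to 21.6, 63.5 and 25.3 FPKM in the LPS+EtOH libraries, 13.0, 35.0 and 15.3 in LPS+CPZ, and 51.1, 98.2 and 80.9 in LPS. The sum was thus highest in the second library of each group, and the second LPS+EtOH library lay within the LPS range. By this sum the groups ranked LPS+CPZ, LPS+EtOH and LPS from low to high, with LPS+EtOH and LPS+CPZ overlapping.

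Cma1 encodes chymase 1, a protease of the granules. It stood at 11.0, 31.9 and 11.6 FPKM in LPS+EtOH, 5.28, 12.7 and 5.05 in LPS+CPZ, and 20.2, 38.1 and 32.5 in LPS. LPS+CPZ lay wholly below LPS, whereas LPS+EtOH overlapped LPS through its second library and LPS+CPZ through the other two.

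Mcpt4 encodes a further chymase of connective tissue mast cells. It stood at 4.96, 10.5 and 5.71 FPKM in LPS+EtOH, 3.49, 10.4 and 4.68 in LPS+CPZ, and 15.4, 28.7 and 24.6 in LPS. Both treated groups lay wholly below LPS and overlapped each other. Cpa3, the gene of carboxypeptidase A3, which trims peptides from their carboxyl end, behaved alike: 1.70, 6.89 and 2.45 FPKM in LPS+EtOH, 1.32, 2.99 and 1.37 in LPS+CPZ, and 7.16, 12.4 and 10.6 in LPS.

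The tryptase genes Tpsab1 and Tpsb2 encode trypsin-like proteases of the granules. Tpsab1 stood at 2.09, 8.39 and 2.86 FPKM in LPS+EtOH, 0.579, 1.56 and 0.579 in LPS+CPZ, and 3.81, 9.65 and 4.80 in LPS. Tpsb2 stood at 1.83, 5.74 and 2.68 FPKM in LPS+EtOH, 2.37, 7.35 and 3.60 in LPS+CPZ, and 4.62, 9.41 and 8.42 in LPS. Tpsab1 was lowest in LPS+CPZ with no overlap with either other group, while all 3 groups overlapped for Tpsb2.

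The receptor genes were below each of the 5 proteases in most libraries, but Kit exceeded Tpsab1, Tpsb2 and Cpa3 in the first LPS+EtOH library, and Kit and Fcer1a exceeded Tpsab1 in the first LPS+CPZ library. Kit, the receptor tyrosine kinase for stem cell factor, stood at 3.06, 3.63 and 2.31 FPKM in LPS+EtOH, 0.656, 1.26 and 0.528 in LPS+CPZ, and 1.97, 1.58 and 2.57 in LPS. LPS+CPZ lay below both other groups, which overlapped. Fcer1a, the gene of the IgE-binding alpha chain, stood at 0.568, 2.35 and 0.773 FPKM in LPS+EtOH, 0.753, 1.51 and 0.405 in LPS+CPZ, and 0.769, 1.01 and 0.428 in LPS, so that it reached 1 FPKM solely in the second library of each group.

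Ms4a2, the gene of the FcεRI beta chain, was listed at 0 in all 3 LPS+EtOH libraries, at 0.0372, 0.0641 and 0 FPKM in LPS+CPZ, and at 0.025, 0.0357 and 0.106 FPKM in LPS. A defining mast cell gene was therefore at or near 0 beside protease values of several FPKM. Gata2, which encodes a transcription factor of mast cells and of blood progenitors, stood at 0.239, 0.564 and 0.316 FPKM in LPS+EtOH, 0.0921, 0.15 and 0.0339 in LPS+CPZ, and 0.206, 0.893 and 0.261 in LPS. Its LPS+CPZ values lay below all those of the other groups, at levels too low for the test.

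Hdc, which encodes the histamine-forming enzyme, was the highest of the 10 genes in each library, narrowly so over Cma1 in the second LPS+CPZ library (14.6 against 12.7 FPKM). It stood at 205, 211 and 179 FPKM in LPS+EtOH, 11.1, 14.6 and 10.6 in LPS+CPZ, and 139, 113 and 96.6 in LPS. No groups overlapped. Other myeloid cells, granulocytes among them, are known to transcribe Hdc, and the 9 neutrophil markers examined here summed to 43659 to 48237 FPKM in LPS+EtOH, 6375 to 6875 in LPS+CPZ and 3852 to 5400 in LPS, none of them at 0. All 9 markers rose in LPS+EtOH against LPS. In LPS+CPZ against LPS they split, with Ly6g, Retnlg and S100a8 higher and Csf3r, Cxcr2 and Ltf lower, and S100a8 and S100a9 make up most of the sum. Csf3r, the G-CSF receptor gene, averaged 358 ± 3.36 FPKM in LPS+EtOH, 101 ± 21.6 in LPS+CPZ and 161 ± 49.2 in LPS, the same order of groups as Hdc. Cxcr2, a chemokine receptor gene, and Ltf, the lactoferrin gene, had that order too, at 38.8 ± 15.7 and 12.3 ± 2.11 FPKM in LPS+EtOH, 3.81 ± 0.705 and 1.4 ± 0.279 in LPS+CPZ, and 11.4 ± 2.74 and 4.32 ± 1.90 in LPS (SD, n = 3 each). By group means LPS was instead lowest for Ly6g, Retnlg, S100a8 and, within their spread, Ngp and Camp. In LPS+EtOH, LPS+CPZ and LPS, Ly6g averaged 156, 274 and 16.9 FPKM and S100a8 averaged 9141, 2752 and 995. Retnlg averaged 2853, 257 and 117 FPKM. S100a9 had the order of Hdc, with LPS+CPZ (3208 FPKM) close to LPS (3369). The part of neutrophils in the Hdc values was not tested.

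**Figure D1:**
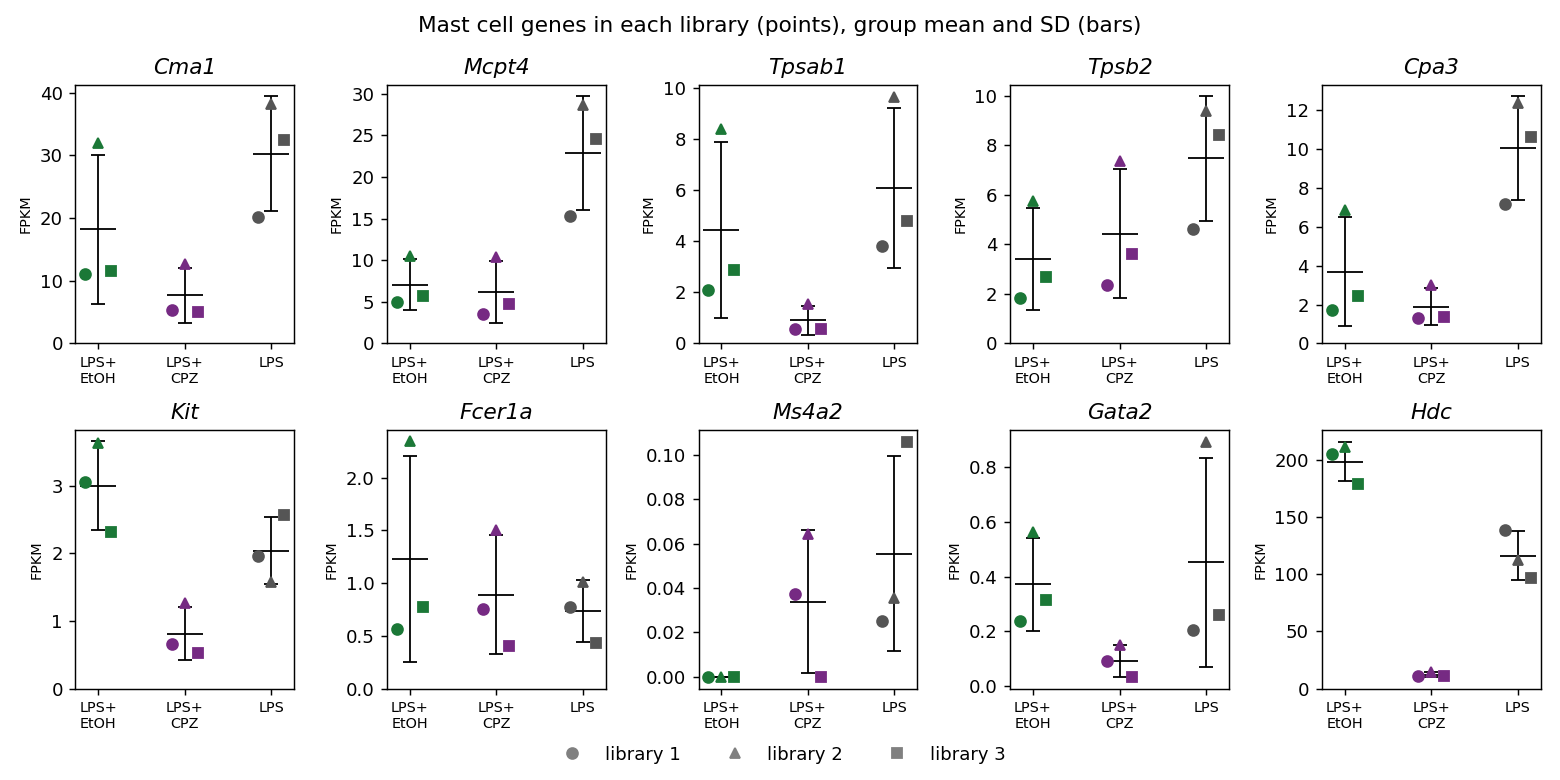
FPKM of the 10 mast cell genes (one panel each, own linear axis) in LPS+EtOH, LPS+CPZ and LPS, with a point for each library, its shape giving the library number, and black bars for the group mean and SD (n = 3). The triangles of the second library stand highest in every group for Cma1, Mcpt4, Tpsab1, Tpsb2, Cpa3, Fcer1a and Gata2, while Hdc separates the 3 groups.

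Within each group the libraries differed in their mast cell transcripts. Relative to the mean of the other two libraries, the second library held 1.98 to 3.39 times as much of the 5 proteases in LPS+EtOH, 2.23 to 2.69 times in LPS+CPZ and 1.39 to 2.24 times in LPS. For Hdc the same ratio was 1.10 in LPS+EtOH, 1.34 in LPS+CPZ and 0.957 in LPS, and for Kit it was 1.35, 2.13 and 0.699. Kit and Hdc thus did not share the high second library in LPS.

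In all, 7 of the 10 genes were highest in the second library of every group, beside 3.65% of the 33417 genes above 0, and none was highest in the first or the third library of every group. Among tested genes these were 6 of the 8, Gata2 being untested. Of all 11721 tested genes 6.98% were highest in the second library of every group, 4.24% in the first and 3.65% in the third. The labels do not say whether libraries of the same number in different groups share mice or a day.

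A minority of the genes of other mast cell lists were highest in the same libraries: 1 of 10 other granule proteases, 3 of 14 granule and mediator genes, 2 of 9 other receptors, 2 of 11 transcription factors, 0 of 17 FcεRI signalling genes and 0 of 6 ligands and receptors around mast cells. Tph1, the first enzyme of serotonin synthesis, stood at 0.99, 3.48 and 0.985 FPKM in LPS+EtOH, 0.391, 0.779 and 0.29 in LPS+CPZ, and 0.553, 1.45 and 0.947 in LPS. Slc18a2, the vesicle transporter that loads amines into granules, and Mrgprb1, a Mas-related receptor, were also highest in each second library, at 0.131 to 1.07 and 0.116 to 0.722 FPKM over the 9 libraries. Il1rl1, the IL-33 receptor gene, and Gata1 did likewise. Among the markers of macrophages (8 genes), neutrophils (9), basophils (3), B cells (5), T and NK cells (8) and red blood cells (6), 0 genes were highest in every second library. The high second library was not confined to mast cell genes, since A530032D15Rik, Tapbpl and Uba7, described further below, shared it. This pattern was noticed in these values and has no test.

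**Figure D2:**
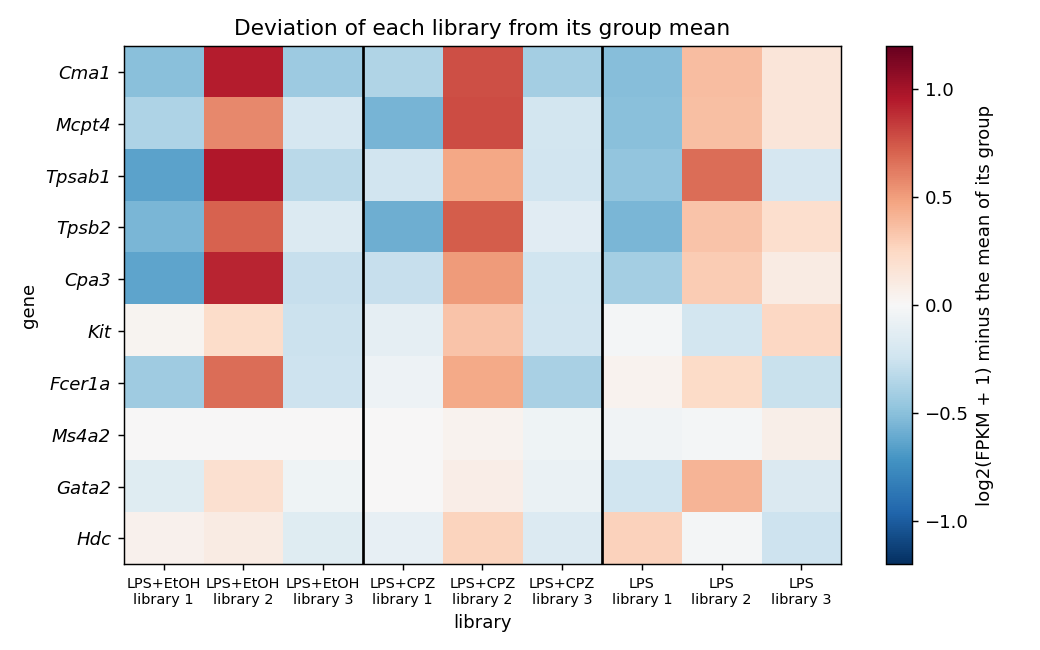
Deviation of each library's log2(FPKM + 1) from the mean of its group (colour scale, log2 units) for the 10 genes (rows) in the 3 libraries of LPS+EtOH, LPS+CPZ and LPS (columns, black lines between groups). The second column of each block is red for the 5 proteases, Fcer1a and Gata2, reaching 0.963 for Tpsab1 in LPS+EtOH, whereas Kit (-0.22) and Hdc (-0.03) lie below 0 there in LPS.

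LPS+CPZ against LPS asks what CPZ changed in LPS-treated cells, and more mast cell genes were called here than in the other comparisons. Of the 8 tested genes 6 fell (Cma1, Mcpt4, Tpsab1, Cpa3, Kit and Hdc), and Tpsb2 and Fcer1a did not pass the test. These are FPKM on the log2(FPKM + 1) scale, tested with limma across all genes, with Benjamini-Hochberg adjusted p under 0.05 as the threshold. Of all tested genes 69.2% passed, 48.4% being lower and 20.7% higher. Passing in 6 of 8 is therefore near the share over all genes. The groups did not overlap for the same 6 of the 8, all lower, beside 72.9% of all tested genes (50.7% lower and 22.3% higher). The median log2 change was -1.83 over the 8 genes and -0.33 over all tested genes. Markers of other cell types fell in the same comparison: 5 of 5 B cell genes, 6 of 6 tested T and NK cell genes, 2 of 2 tested eosinophil genes and 6 of 6 red blood cell genes. B cell markers summed to 32.0 to 50.5 FPKM in LPS+EtOH, 126 to 167 in LPS+CPZ and 398 to 607 in LPS, and eosinophil markers to 1.91 to 2.87 FPKM in LPS+EtOH, 4.72 to 5.29 in LPS+CPZ and 16.1 to 28.3 in LPS, with 1 of 7 eosinophil genes listed at 0 throughout. T and NK cell markers summed to 0.393 to 0.708 FPKM in LPS+EtOH, 7.59 to 14.9 in LPS+CPZ and 31.3 to 38.6 in LPS. The part of these cell types in the mast cell values was not tested. In these bulk samples fewer mast cells and less RNA per mast cell cannot be told apart.

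Hdc had the largest change of the 8, averaging 12.1 ± 2.17 FPKM in LPS+CPZ and 116 ± 21.4 in LPS (SD, n = 3 each; log2 change -3.15 ± 0.16 SE, limma adjusted p = 1.68e-07). Among the proteases, Cpa3 averaged 1.89 ± 0.953 FPKM in LPS+CPZ and 10.1 ± 2.66 in LPS (log2 change -1.95 ± 0.37, limma adjusted p = 0.000833). Cma1 averaged 7.68 ± 4.36 FPKM in LPS+CPZ and 30.3 ± 9.16 in LPS (log2 change -1.91 ± 0.42, limma adjusted p = 0.00226). All 3 LPS+CPZ libraries lay below all 3 LPS libraries for each of these genes.

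Tpsab1 and Mcpt4 fell by similar amounts, with log2 changes of -1.85 ± 0.41 and -1.81 ± 0.36 (limma adjusted p = 0.0023 and 0.00119). Kit averaged 0.815 ± 0.391 FPKM in LPS+CPZ and 2.04 ± 0.497 in LPS, a smaller fall (log2 change -0.75 ± 0.19, limma adjusted p = 0.00417). Tpsb2 averaged 4.44 ± 2.59 FPKM in LPS+CPZ and 7.48 ± 2.53 in LPS (log2 change -0.70 ± 0.39, limma adjusted p = 0.131). It passed the test without the second LPS+CPZ library (-1.06), without the second library of every group (-0.89) and with globin genes left out (-0.97). Median-ratio scaling, which centres the libraries on a common median, kept all 6 falls past the threshold, with log2 changes of -0.52 for Kit to -2.82 for Hdc.

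LPS+EtOH against LPS asks what ethanol changed, and here the mast cell genes split. Mcpt4, Cpa3 and Tpsb2 fell, Hdc rose, and Cma1, Tpsab1, Kit and Fcer1a did not pass the test, so 4 of 8 were called beside 83.6% of all tested genes (64.6% lower and 19.0% higher). The groups did not overlap for Mcpt4 and Cpa3, both lower, and Hdc, higher, beside 84.8% of all tested genes (65.3% lower and 19.5% higher). The median log2 change was -0.65 over the 8 genes and -0.82 over all tested genes. The tested markers of B cells (5), T and NK cells (6), eosinophils (2) and red blood cells (6) all fell here too, and the 9 neutrophil markers rose. After median-ratio scaling 3 of the 8 were higher (Hdc, Kit and Fcer1a) and 0 lower, with log2 changes of -0.58 for Mcpt4, -0.45 for Cpa3 and -0.09 for Tpsb2, so none of the 3 protease falls passed on that scale. Under quantile normalization Mcpt4 was still lower (-1.03) and Hdc, Kit and Fcer1a were higher.

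Mcpt4 averaged 7.07 ± 3.03 FPKM in LPS+EtOH and 22.9 ± 6.83 in LPS (SD, n = 3 each; log2 change -1.58 ± 0.36 SE, limma adjusted p = 0.00184). Cpa3 averaged 3.68 ± 2.80 FPKM in LPS+EtOH and 10.1 ± 2.66 in LPS (log2 change -1.37 ± 0.37, limma adjusted p = 0.00518). For both genes the groups did not overlap.

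Tpsb2 averaged 3.42 ± 2.06 FPKM in LPS+EtOH and 7.48 ± 2.53 in LPS (log2 change -0.99 ± 0.39, limma adjusted p = 0.0333), with overlapping libraries. Its call was lost without the second or the third LPS library (-0.82 and -0.89), and without the first or the third LPS+EtOH library (-0.72 and -0.91). Cma1 averaged 18.2 ± 11.9 FPKM in LPS+EtOH and 30.3 ± 9.16 in LPS (log2 change -0.82 ± 0.42, limma adjusted p = 0.0927), and Tpsab1 4.44 ± 3.44 and 6.09 ± 3.12 FPKM (-0.47 ± 0.41, limma adjusted p = 0.303). Without the second LPS+EtOH library both passed the test as falls (-1.30 and -0.95), likewise without the second library of every group (-1.11 and -0.61), and Cma1 also with globin genes left out (-1.13), while under median-ratio scaling both had the opposite sign (0.22 and 0.42).

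Hdc averaged 199 ± 17.2 FPKM in LPS+EtOH and 116 ± 21.4 in LPS (log2 change 0.78 ± 0.16, limma adjusted p = 0.00104), and all 3 LPS+EtOH libraries exceeded all 3 LPS libraries. The rise held under each alternative run, with log2 changes of 0.47 with globin genes left out to 1.87 under median-ratio scaling. Kit averaged 3.0 ± 0.662 FPKM in LPS+EtOH and 2.04 ± 0.497 in LPS (log2 change 0.40 ± 0.19, limma adjusted p = 0.0674). It passed as a rise without the third LPS library (0.52), without the third LPS+EtOH library (0.53) and without the second LPS+CPZ library (0.40). The rise also passed under median-ratio scaling (1.18), under quantile normalization (1.28) and with a pseudocount of 5 FPKM (0.18). Kit did not pass in the other runs that tested it. Its change was 0.18 with globin genes left out (limma adjusted p = 0.452). Without the second library of every group it was 0.17 (limma adjusted p = 0.37).

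LPS+CPZ against LPS+EtOH sets the treatments against each other, and the LPS group serves as control in both comparisons above, so those are not independent. Kit, Cma1, Tpsab1 and Hdc were lower in LPS+CPZ and none of the 8 was higher, beside 76.6% of all tested genes called (15.2% lower and 61.4% higher). Kit, Tpsab1 and Hdc did not overlap between the groups, all lower, beside 79.0% of all tested genes (16.0% lower and 62.9% higher). The median log2 change was -0.83 over the 8 genes and 0.55 over all tested genes. In this comparison the 5 B cell and the 6 tested T and NK cell markers were higher, and 8 of 9 neutrophil markers lower. Under median-ratio scaling 6 of the 8 were lower, Mcpt4 (-0.91) and Cpa3 (-1.16) having joined the 4.

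Hdc averaged 12.1 ± 2.17 FPKM in LPS+CPZ and 199 ± 17.2 in LPS+EtOH (SD, n = 3 each), a log2 change of -3.93 ± 0.16 SE (limma adjusted p = 1.11e-07). Kit averaged 0.815 ± 0.391 FPKM in LPS+CPZ and 3.0 ± 0.662 in LPS+EtOH, a log2 change of -1.15 ± 0.19 (limma adjusted p = 0.000234). Tpsab1 averaged 0.905 ± 0.564 FPKM in LPS+CPZ and 4.44 ± 3.44 in LPS+EtOH, a log2 change of -1.38 ± 0.41 (limma adjusted p = 0.0107). Without the second LPS+EtOH library the change of Tpsab1 was -0.90 and still passed.

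Cma1 averaged 7.68 ± 4.36 FPKM in LPS+CPZ and 18.2 ± 11.9 in LPS+EtOH, a log2 change of -1.09 ± 0.42 (limma adjusted p = 0.037), with overlapping libraries. The call was lost without the first or the third LPS+CPZ library (-0.91 and -0.88) and without the second LPS+EtOH library (-0.61). Cpa3 had a log2 change of -0.58 ± 0.37 (limma adjusted p = 0.171) and passed without the first LPS+EtOH library (-0.90). Mcpt4 and Tpsb2 had log2 changes of -0.22 ± 0.36 and 0.30 ± 0.39 (limma adjusted p = 0.585 and 0.497), and that of Tpsb2 turned to -0.32 under median-ratio scaling.

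**Figure D3:**
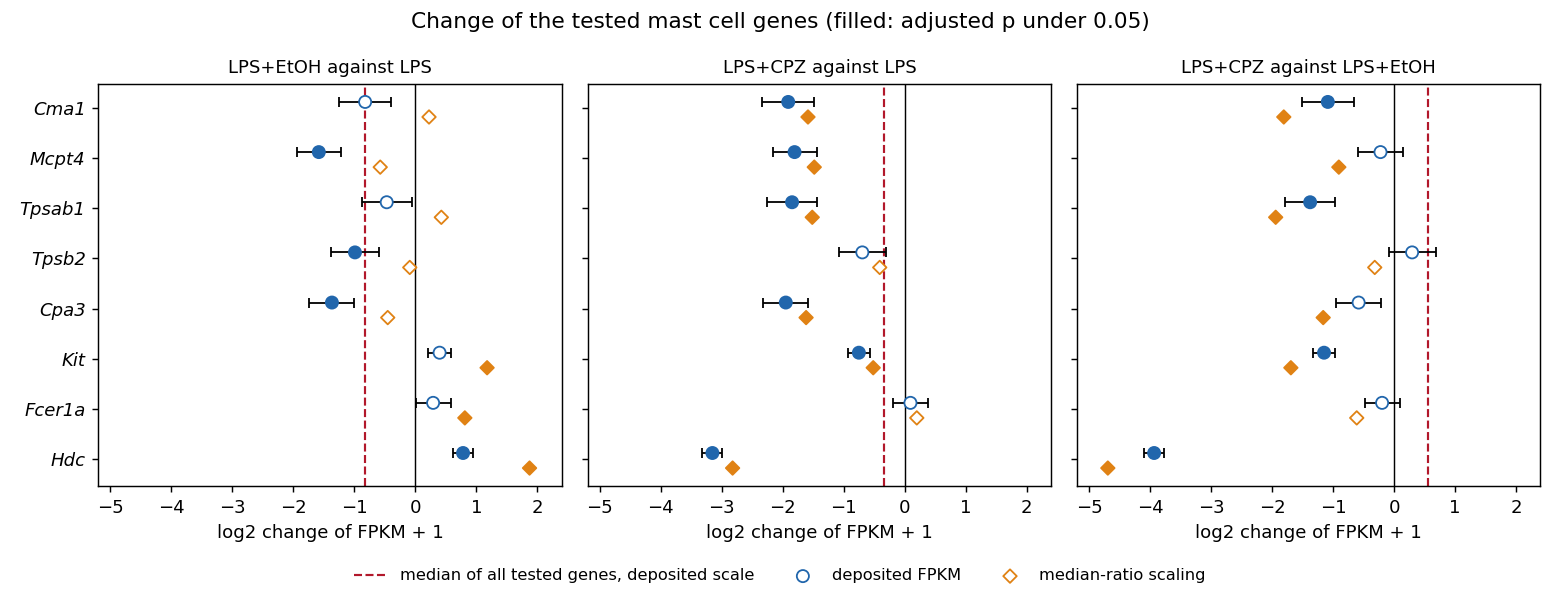
Log2 change of FPKM + 1 for the 8 tested genes in the 3 comparisons, as deposited (circles, bars for SE) and after median-ratio scaling (diamonds), filled where the adjusted p was under 0.05, with a dashed line at the median of all tested genes. Hdc lies farthest left in LPS+CPZ against LPS (-3.15) and right of 0 in LPS+EtOH against LPS (0.78), where the diamonds of Cma1 and Tpsab1 lie on the other side of 0 from their circles.

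Ratios between genes within a library do not depend on how the library was scaled. The ratio of Tpsab1 to Tpsb2 was 1.14, 1.46 and 1.07 in LPS+EtOH, 0.244, 0.212 and 0.161 in LPS+CPZ, and 0.826, 1.03 and 0.57 in LPS. All 3 groups were separate, and by geometric means the ratio was 3.87 times lower in LPS+CPZ than in LPS and 5.98 times lower than in LPS+EtOH. The tryptase transcripts were therefore not in a constant proportion across groups, and how fragments were divided between these similar genes is uncertain.

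The ratio of Cma1 to Mcpt4 was 2.22, 3.03 and 2.03 in LPS+EtOH, 1.51, 1.23 and 1.08 in LPS+CPZ, and 1.32, 1.33 and 1.32 in LPS. The LPS libraries agreed closely in this ratio although the genes themselves varied between them, and LPS+EtOH lay above both other groups. As shares of the protease sum, Cma1 made up 45.9 to 51.1% in LPS+EtOH, 33.1 to 40.5% in LPS+CPZ and 38.8 to 40.1% in LPS. Tpsb2 made up 8.45 to 10.6% in LPS+EtOH, 18.2 to 23.5% in LPS+CPZ and 9.03 to 10.4% in LPS.

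Kit relative to Cpa3 was 1.80, 0.527 and 0.942 in LPS+EtOH, 0.498, 0.421 and 0.385 in LPS+CPZ, and 0.275, 0.128 and 0.242 in LPS, with no overlap between groups. Hdc relative to Cpa3 was 121, 30.7 and 72.9 in LPS+EtOH, 8.46, 4.88 and 7.74 in LPS+CPZ, and 19.4, 9.10 and 9.11 in LPS. The groups were separate for both ratios. Cpa3 relative to Mcpt4 was 0.343, 0.653 and 0.43 in LPS+EtOH, 0.378, 0.288 and 0.293 in LPS+CPZ, and 0.466, 0.432 and 0.431 in LPS, so that LPS+EtOH overlapped both other groups (1.04 times LPS by geometric means, exact permutation p = 1) and LPS+CPZ lay below LPS. Cma1 relative to Cpa3 was 6.48, 4.64 and 4.73 in LPS+EtOH, 4.01, 4.25 and 3.69 in LPS+CPZ, and 2.82, 3.08 and 3.06 in LPS, with no overlap. With 3 libraries against 3, the exact permutation test (two-sided) cannot give a p below 0.1, which 15 of the 18 ratio comparisons made here reached (adjusted p = 0.12), so none could pass the threshold.

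**Figure D4:**
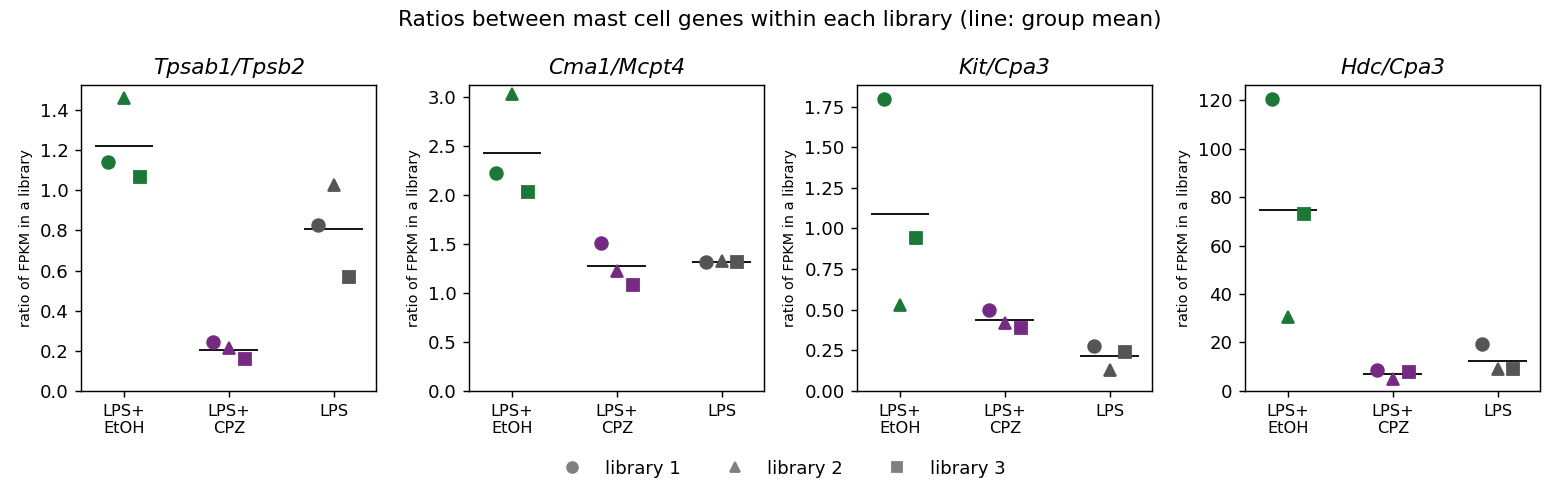
Ratio of FPKM between pairs of genes within each library (points, shape for the library number, line for the group mean, linear axes from 0) in LPS+EtOH, LPS+CPZ and LPS. Tpsab1/Tpsb2 is lowest in LPS+CPZ (0.161 to 0.244), and Cma1/Mcpt4 is nearly constant in LPS (1.32 to 1.33) and higher in LPS+EtOH (2.03 to 3.03).

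Proteases of other mast cell types and of basophils were near 0. The mucosal mast cell protease genes Mcpt1 and Mcpt2 reached at most 0.0361 and 0.059 FPKM in any library, against at least 3.49 FPKM for Mcpt4. The basophil protease genes Mcpt8 and Prss34 reached at most 0.388 and 0.562 FPKM. Of 10 other granule proteases, Gzmb alone could be tested, which encodes granzyme B of cytotoxic lymphocytes and averaged 0.512 ± 0.234 FPKM in LPS+EtOH, 1.79 ± 0.654 in LPS+CPZ and 3.58 ± 2.64 in LPS. Mrgprb2, the receptor for basic secretagogues of connective tissue mast cells, reached at most 0.0913 FPKM.

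Genes for granule contents and lipid mediators, 9 of 14 of them tested, changed in both directions: 5 rose and 3 fell in LPS+EtOH against LPS, 4 rose and 3 fell in LPS+CPZ against LPS, and 4 were higher and 4 lower in LPS+CPZ against LPS+EtOH. Beside these and the counts of the lists that follow, of all tested genes 19.0% were higher and 64.6% lower in LPS+EtOH against LPS. In LPS+CPZ against LPS 20.7% were higher and 48.4% lower, and 61.4% were higher and 15.2% lower when LPS+CPZ was set against LPS+EtOH. Srgn, which encodes the proteoglycan core serglycin and is transcribed by many blood cells, averaged 2735 ± 19.4 FPKM in LPS+EtOH, 650 ± 139 in LPS+CPZ and 801 ± 124 in LPS. It rose in LPS+EtOH by a log2 change of 1.78 ± 0.18 (limma adjusted p = 3.95e-06) and did not pass in LPS+CPZ against LPS (-0.31, limma adjusted p = 0.146). Alox5ap, which encodes the 5-lipoxygenase activating protein, rose in both treated groups, with averages of 153 ± 19.8 FPKM in LPS+EtOH, 280 ± 60.0 in LPS+CPZ and 38.8 ± 10.6 in LPS.

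Of 17 tested genes that relay the FcεRI signal, 5 rose and 9 fell in LPS+EtOH, 3 rose and 11 fell in LPS+CPZ, and 7 were higher and 5 lower in LPS+CPZ against LPS+EtOH. Their median log2 changes were -0.72, -0.54 and 0.13, beside -0.82, -0.33 and 0.55 over all tested genes. Fcer1g, the gene of the signalling gamma chain that macrophages and neutrophils also use, rose in both, averaging 1009 ± 17.7 FPKM in LPS+EtOH, 525 ± 61.5 in LPS+CPZ and 235 ± 37.7 in LPS. In the same libraries the ligand-binding Fcer1a stood at 0.405 to 2.35 FPKM.

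Among other receptors of mast cells, 6 of 9 were tested, of which 3 rose and 1 fell in LPS+EtOH and 0 rose and 4 fell in LPS+CPZ. In LPS+CPZ against LPS+EtOH, 0 were higher and 4 lower. Il1rl1 averaged 2.68 ± 0.794 FPKM in LPS+EtOH, 2.28 ± 0.0462 in LPS+CPZ and 4.49 ± 0.267 in LPS and fell in both (log2 changes -0.60 and -0.74, limma adjusted p = 0.00303 and 0.00116). Milr1, which encodes the inhibitory receptor allergin-1, averaged 41.9 ± 6.87 FPKM in LPS+EtOH, 11.2 ± 1.82 in LPS+CPZ and 11.3 ± 0.68 in LPS, rising in LPS+EtOH by a log2 change of 1.79 (limma adjusted p = 1.02e-06).

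Of 11 transcription factor genes of the mast cell lineage, 9 were tested: 3 rose and 4 fell in LPS+EtOH, 1 rose and 7 fell in LPS+CPZ, and 1 was higher and 3 lower in LPS+CPZ against LPS+EtOH. Mitf, required for mast cell development and also transcribed in macrophages, averaged 8.29 ± 1.26 FPKM in LPS+EtOH, 11.0 ± 1.35 in LPS+CPZ and 7.62 ± 2.12 in LPS, and was the gene that rose in LPS+CPZ (log2 change 0.50 ± 0.18, limma adjusted p = 0.0267). Gata1, a partner of the GATA2 factor in this lineage, did not exceed 0.455 FPKM. Of the genes for stem cell factor, IL-33, histamine receptors and the tryptase-activated receptor, Hrh2 alone was tested. This histamine receptor gene averaged 23.7 ± 0.909 FPKM in LPS+EtOH, 3.14 ± 0.96 in LPS+CPZ and 11.0 ± 0.998 in LPS, the same order of groups as Hdc. It rose in LPS+EtOH by a log2 change of 1.04 ± 0.16 (limma adjusted p = 0.000104) and fell in LPS+CPZ (-1.56 ± 0.16, limma adjusted p = 1.36e-05).

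The 5 genes whose profile over the 9 libraries lay closest to the protease sum, by root mean square difference of centred log2(FPKM + 1), were Gm11843 (0.291), A530032D15Rik (0.36), the immunoproteasome gene Psmb10 (0.416), Tapbpl (0.423) and Uba7 (0.423), out of 11713 compared. The tested mast cell genes themselves were left out of the search. A530032D15Rik, Tapbpl and Uba7 were highest in the second library of every group, whereas Gm11843 and Psmb10 were not in LPS. The search itself favours genes that share the high second library. Gm11843, a predicted gene, averaged 5.04 ± 2.08 FPKM in LPS+EtOH, 2.51 ± 1.38 in LPS+CPZ and 14.1 ± 6.12 in LPS (SD, n = 3 each).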

How the data were processed

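The libraries were strand-specific TruSeq libraries sequenced on a NovaSeq instrument, each from RNA of 3 samples pooled in equal amounts, per the labels' protocols. The authors deposited 1 table of FPKM per gene for all libraries. STAR, StringTie and FastQC (0.11.2) are listed in the submitters' processing notes with the human build hg38, although the gene IDs are mouse ones (55154 of 55335 are in GENCODE M21). Coordinates printed here are those of the RefSeq windows.

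The 10 genes and the other lists were chosen with earlier results of these data known. The 11721 genes that reached 1 FPKM in 3 or more libraries were tested two-sided as log2(FPKM + 1) in 1 limma fit of the 9 libraries by group (limma 3.58.1, R 4.3.3, variance prior with a trend, residual df 6), and p-values were adjusted by Benjamini-Hochberg over all of them. Fold changes on this scale understate the change of weakly expressed genes. The fit was tested on simulated data in which a small set of genes was raised in a single group. Most genes were called in the real comparisons, so that test cannot vouch for the fit in this setting.

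The text names the 10 genes, defining mast cell and basophil genes, the 5 nearest profiles and some members of the other lists. Those members are not always the highest of their list, and some were named after their values were seen. Alternatives left the tested genes as they were, except where a filter was changed and where the globin genes were left out. Python 3.11.15 and matplotlib 3.10.9 made the tables and plots.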

Additional observations from a re-analysis of the deposited data

How the results depend on the processing

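Of 495 recomputed log2 changes of single mast cell genes, 440 kept their direction and their side of the threshold, 25 came to pass it, 16 no longer passed and 14 changed sign, the last all among values that had not passed the test. Median-ratio scaling turned Cma1 (0.22) and Tpsab1 (0.42) in LPS+EtOH against LPS and Tpsb2 (-0.32) in LPS+CPZ against LPS+EtOH, and quantile normalization turned Tpsab1 (0.43) and Tpsb2 (-0.26) in the same comparisons. In LPS+CPZ against LPS, Fcer1a changed sign without the second library of every group (-0.0186) and with globin genes left out (-0.0338). Leaving out 1 library gave Fcer1a -0.0451 to 0.50 in LPS+EtOH against LPS, -0.13 to 0.29 in LPS+CPZ against LPS and -0.42 to 0.14 in LPS+CPZ against LPS+EtOH. In that last comparison it gave Mcpt4 -0.61 to 0.0662 and Tpsb2 -0.0662 to 0.65. The cause was not tested.

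The number of mast cell genes called ranged from 3 to 6 in LPS+EtOH against LPS, 6 to 7 in LPS+CPZ against LPS and 3 to 5 in LPS+CPZ against LPS+EtOH when 1 library was left out. In LPS+CPZ against LPS+EtOH the count was 2 with no filter on low values, where Cma1 and Tpsab1 were lost, and 2 with a filter of 5 FPKM, under which Kit and Tpsab1 were no longer tested. Without the second library of every group the counts were 6 in LPS+EtOH against LPS, 7 in LPS+CPZ against LPS and 4 in LPS+CPZ against LPS+EtOH. This alternative and the one without globin genes were chosen after seeing the data.

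Over all genes, the filter of 5 FPKM left 6419 genes and gave 5345, 4741 and 4993 calls in LPS+EtOH against LPS, LPS+CPZ against LPS and LPS+CPZ against LPS+EtOH, against 9796, 8106 and 8980, since fewer genes were tested. Higher and lower calls were 2230 and 7566, 2432 and 5674, and 7195 and 1785 as deposited, and 4435 and 4936, 3228 and 3997, and 4169 and 3686 under median-ratio scaling.

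Libraries of the same number deviated together only in part. Across genes, which are not independent, the correlation of their deviations was -0.00645 to 0.26, and 3 of 9 pairs exceeded 0.1. Between libraries of different number it was -0.204 to 0.127, and 2 of 18 pairs exceeded 0.1. These values and the labels do not settle whether the numbers mark pairs, and the main fit did not take them as such. With the replicate number as a block, 6 mast cell genes were called in LPS+EtOH against LPS (Cma1 and Tpsab1 added), 7 in LPS+CPZ against LPS (Tpsb2 added) and 5 in LPS+CPZ against LPS+EtOH (Cpa3 added). The 3 libraries per group and the unknown fragment counts limit the precision of genes near 1 FPKM, such as Fcer1a.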
